A study of Mus musculus with 4 samples.

Results

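The genes of glycolysis, glucose uptake, lactate export and pyruvate entry into mitochondria were followed in chromatin-associated RNA of mouse embryonic stem cells (mES cells). They were chosen by name: 37 gene symbols were listed, and they matched 38 of the 36918 rows of the count table because Aldoa had 2 gene identifiers. All 38 rows passed the filter on low counts, as did 14361 genes in all. The RNA was measured by ChAR-seq, which sequences the RNA left in the insoluble chromatin pellet and therefore reads many unspliced transcripts still attached to their genes. The study used it to ask how transcription changes after acute loss of ZBTB21, a zinc finger protein.

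All 4 libraries came from mES cells in which both alleles of Zbtb21 carried an mAID-GFP tag at the C-terminus and the plant F-box gene OsTIR1 sat in the Rosa26 locus. The tagged cells were selected as clones, and the number of clones behind these libraries is not given in the sources used here. In the ZBTB21_degron group, 2 libraries, cells had 24 h of doxycycline (1 μg/ml) and then 6 h of the auxin indole acetic acid (IAA, 500 μM). The other 2 libraries were labelled untreated, and whether those cells had doxycycline is not stated. IAA, doxycycline if the untreated cells had none, and the loss of ZBTB21 therefore cannot be told apart. Whether the replicates were separate cultures is not stated either, so the p-values rest on the spread between these libraries alone, and that spread may be technical.

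Glycolysis splits glucose into pyruvate in the cytosol and yields ATP and NADH. Pyruvate is then either reduced to lactate, which monocarboxylate transporters carry out of the cell together with a proton, or passed through the mitochondrial pyruvate carrier to pyruvate dehydrogenase. Pyruvate dehydrogenase kinases switch that last enzyme off. Many genes of the route are known targets of the hypoxia-inducible factor HIF1A and of MYC, and pluripotent cells are known for a high rate of glycolysis.

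The 4 libraries held between 4262382 and 6479842 counts, and a count of 0 allowed up to 3 counts, or 0.463 to 0.704 CPM (counts scaled to a common library total), for counting error only. Zbtb21 RNA gave no check of the labels: 99.9% of the gene is covered by another gene of the same strand, it had counts of 2, 0, 0 and 0, and the degron acts on the protein. Of 12 embryonic stem cell markers, 11 were tested, and Dppa5a, with counts of 0, 1, 0 and 1, was not. In the degron group 8 of the 11 were higher and none lower by edgeR, beside 20.3% higher and 19.8% lower among all genes tested. With the length trend of each library removed, 8 were higher and 1, Zfp42, was lower (-0.24, edgeR adjusted p = 0.000467). Among all genes tested, 18.1% were then higher and 10.0% lower. The summed level of the 12 was 2744 and 2718 CPM in the untreated and 3547 and 3508 CPM in the degron libraries. Summed fibroblast markers lay at 11.5 and 10.0 CPM against 8.70 and 5.49 CPM, with Dcn at 0 in every library. Endoderm markers, of which Gata6 and Dab2 were lower, summed to 50.8 and 44.3 against 34.3 and 30.1 CPM. Neural markers, of which Pax6 was lower, summed to 25.5 and 23.6 against 22.6 and 23.6 CPM, with Sox1 and Tubb3, each covered by another gene on its strand, at 0 in every library. Trophectoderm markers, of which Tfap2c was higher, summed to 44.6 and 37.4 against 53.7 and 50.5 CPM. The Gata6, Dab2, Pax6 and Tfap2c calls did not pass with the length trend of each library removed or in DESeq2, which gave Gata6 and Pax6 no adjusted p. The part of these cell type markers in the results was not tested. In such bulk samples, fewer cells of a type and less RNA per cell cannot be told apart.

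Genes at most steps of the route were lower after the treatment, from glucose uptake by Slc2a1 to lactate export by Slc16a3, while Pdha1 and Pdhb, the E1 subunits of pyruvate dehydrogenase, were higher. With edgeR's quasi-likelihood test and a threshold of 0.05 on the Benjamini-Hochberg adjusted p, 20 of the 38 rows were lower, 5 were higher and 13 did not pass. That is 52.6% lower and 13.2% higher, beside 19.8% lower and 20.3% higher among all genes tested. The median log2 fold change of the 38 rows was -0.26, beside -0.00075 for all genes tested. Of the 20 lower rows, 12 were lower by at least 0.5 on the log2 scale. A log2 fold change of -0.5 or below, passed or not, was seen in 34.2% of the 38 rows and in 11.9% of all genes tested. Together the 38 rows took 0.559% (95% Wilson interval 0.552 to 0.566) and 0.558% (0.551 to 0.565) of all counts in the untreated libraries, and 0.434% (0.429 to 0.439) and 0.432% (0.426 to 0.438) in the degron libraries. Fly spike-in reads were not used here, so every change is relative to the typical gene of a library.

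**Figure D1:**
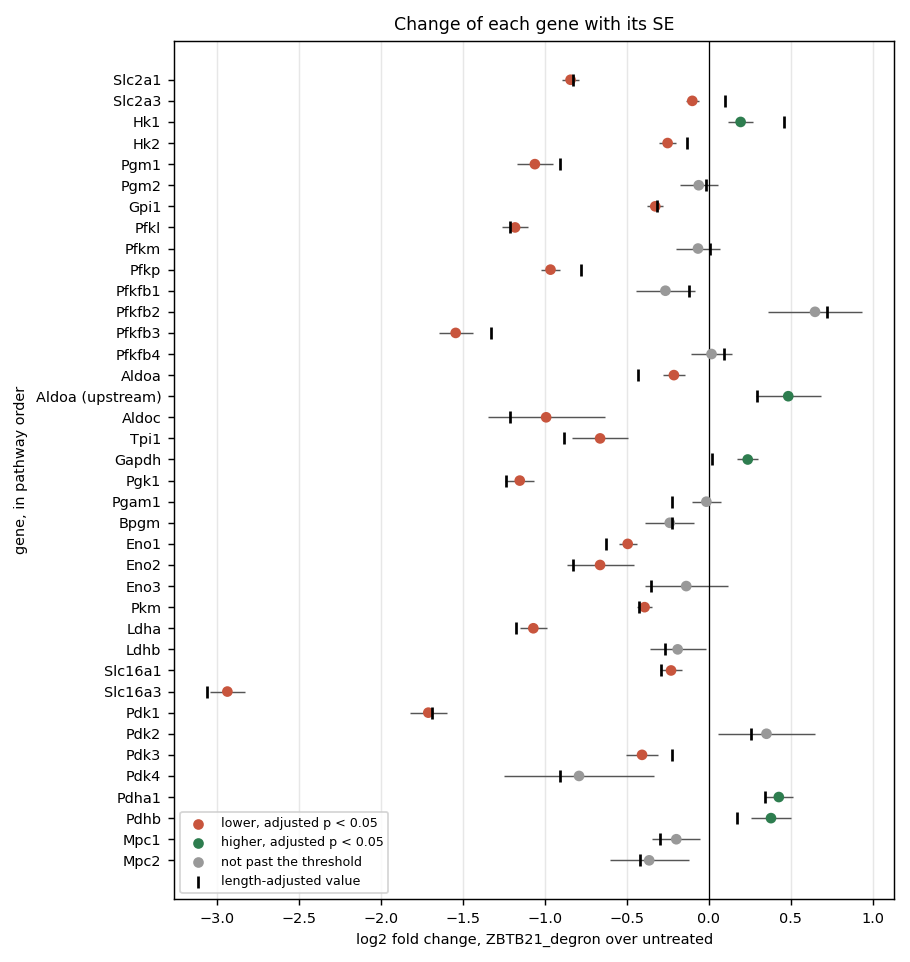
Log2 fold change (degron over untreated, horizontal axis) with its standard error for each of the 38 rows, ordered by step of the pathway, in colours for lower, higher and not past the edgeR threshold. Slc16a3 lies farthest to the left at -2.94, and the lower rows are spread over the whole route.

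The change depended on gene length across the table. The median log2 fold change of tested genes, taken in deciles of length, went from 0.22 in the shortest to -0.37 in the longest, and the 38 rows ran from 3.71 to 111 kb. The test was therefore repeated with each library's trend on gene length taken out. Then 18 of the 38 rows were lower and 2 higher, beside 10.0% lower and 18.1% higher among all genes tested, and 17 of the 20 lower rows were lower again. DESeq2's Wald test called 14 rows lower and 2 higher, beside 10.1% and 10.7% of all genes tested. It did not repeat the edgeR calls of Slc2a3, Hk1, both Aldoa entries, Tpi1, Eno2, Slc16a1 and Pdhb, and gave Aldoc no adjusted p. Of the 25 rows that passed in edgeR, 15 passed with each library left out in turn, 14 of them lower and Pdha1 higher. The calls that did not are given with each gene.

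**Figure D2:**
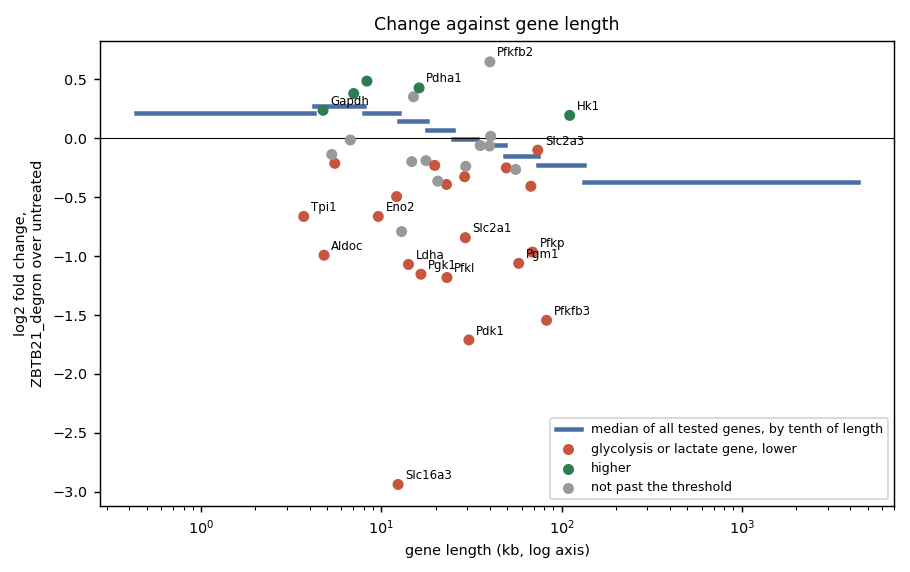
Log2 fold change (degron over untreated) against gene length in kb on a log axis. Bars are medians of all tested genes by decile of length, from 0.22 in the shortest to -0.37 in the longest, and points are the 38 rows coloured by call. Slc16a3, Pdk1, Pfkfb3, Pfkl, Pgk1 and Ldha lie far below the bar of their own length.

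The largest change among these genes was that of Slc16a3, which encodes MCT4, the lactate exporter typical of cells with a high glycolytic rate (ENSMUSG00000025161, mm10, chr11:120948480-120960868, plus strand). It measured 137 and 121 CPM in the untreated libraries and 14.95 and 19.3 CPM in the degron libraries, from 645, 509, 98 and 95 counts. Both degron libraries lay far below both untreated ones. The mean fell from 129 ± 11.1 to 17.1 ± 3.09 CPM (SD, n = 2 per group), by 2.94 ± 0.11 on the log2 scale (± SE here and for all log2 changes; edgeR adjusted p = 1.41e-24), or 7.66-fold. With any single library left out the log2 fold change ran from -3.11 to -2.74. Slc16a1, which encodes MCT1, a lactate carrier that works in either direction (chr3:104638668-104658462, plus strand), measured 162 and 178 CPM against 138 and 152 CPM. Its groups did not overlap, and the change was much smaller, -0.23 ± 0.07 (edgeR adjusted p = 0.00619). That call was lost without untreated replicate 2 (-0.16, edgeR adjusted p = 0.134) and without degron replicate 1 (-0.15, edgeR adjusted p = 0.148), and 21.6% of Slc16a1 is covered by another gene on its strand. Per kb of counted gene body, Slc16a3 was above Slc16a1 in the untreated cells, at 10.7 and 8.71 CPM per kb, and below it in the degron group, at 1.42 and 7.45 CPM per kb.

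Ldha, the lactate dehydrogenase subunit that favours lactate formation (chr7:46841475-46855627, plus strand), measured 135 and 127 CPM in the untreated and 65.5 and 58.6 CPM in the degron libraries. The groups were well apart. The mean fell from 131 ± 6.21 to 62.0 ± 4.86 CPM (SD, n = 2), or by 1.07 ± 0.08 in log2 units (edgeR adjusted p = 3.19e-14). Ldhb, the subunit more often linked with lactate use, lay at 16.6 and 17.9 CPM against 15.9 and 14.0 CPM. These groups did not overlap either, but the difference of -0.19 ± 0.17 did not pass (edgeR adjusted p = 0.396).

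**Figure D3:**
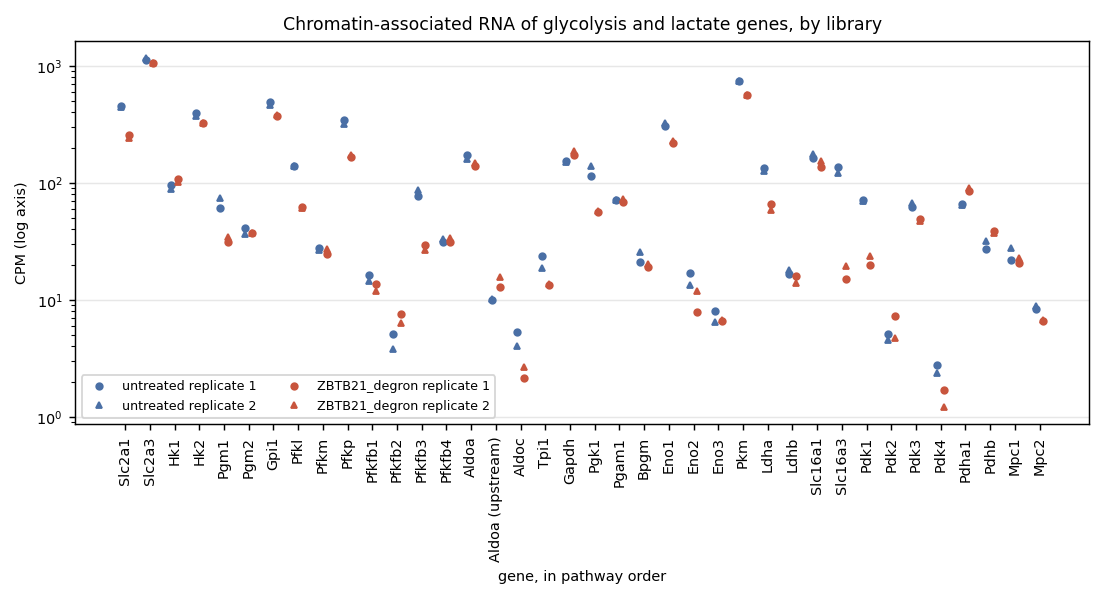
CPM of the 38 rows in each of the 4 libraries on a log axis, ordered by step of the pathway. The replicates of a group lie close together for most genes, and the widest gap between groups is that of Slc16a3, from 121 CPM or more to 19.3 CPM or less.

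The promoters of these genes were read for the letters of the hypoxia response element, ACGTG or GCGTG on either strand, in the 250 bases upstream of each RefSeq start (build GRCm38.p6, the same as mm10). Of the 37 symbols, 36 had a RefSeq promoter entry, and Slc2a3 was not among them. ACGTG or GCGTG stood in at least 1 window of 32 of the 36 genes (88.9%), of 41.5% of all genes with an entry and of 61.2% of the tested ones. ACGTG alone was found in 17 of 36 (47.2%), in 18.5% of all and in 25.0% of the tested genes. The share holding either form was 83.3% of the 12 members lower by at least 0.5, 85.7% of the 7 members lower by less and 94.1% of the 17 others. Genes with several starts have more windows and more chances of a match. By window, 42 of 56 (75.0%) of the members' windows and 55.1% of those of tested genes held a match, with 81.2% in the members lower by at least 0.5, 75.0% in those lower by less and 71.4% in the others. ACGTG alone was in 50.0%, 71.4% and 35.3% of these genes. The order of the 3 groups thus changed with the measure. The palindrome CACGTG, an E-box, contains ACGTG on each strand and was found in 16.7% of the members, 9.86% of the tested genes and 6.86% of all genes. CCAAT was found in 55.6%, 40.5% and 37.5%. These are matches of letters, not sites shown to be bound.

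The windows shown are of genes lower by more than 1 on the log2 scale. Those of Hk2 and Hk1 are added for the opposite directions of the hexokinase pair. Each shown window held at most 30 bases of annotated exon. Pfkl and Pgm1 were also lower by more than 1 but are not shown, nor is the second Ldha start. The Pfkl window held GCGTG 1 time and no ACGTG, and the Pgm1 window held ACGTG 2 times. Each window shown is written 5′ to 3′ on the strand of the gene up to the base before the start. Capitals mark ACGTG or GCGTG on either strand (the reverse reads CACGT or CACGC). The windows are chr11:120948817-120949066 (plus strand) for Slc16a3, chr2:71872974-71873223 (plus) for Pdk1, chr2:11502091-11502340 (minus) for Pfkfb3 and chrX:106186850-106187099 (plus) for Pgk1. Those that follow are chr7:46845554-46845803 (plus) for the first of the 2 Ldha starts, chr6:82774455-82774704 (minus) for Hk2 and chr10:62379909-62380158 (minus) for Hk1. Annotated exon makes up 14 bases of the Slc16a3 window and 11 of the Pfkfb3 window.
Slc16a3: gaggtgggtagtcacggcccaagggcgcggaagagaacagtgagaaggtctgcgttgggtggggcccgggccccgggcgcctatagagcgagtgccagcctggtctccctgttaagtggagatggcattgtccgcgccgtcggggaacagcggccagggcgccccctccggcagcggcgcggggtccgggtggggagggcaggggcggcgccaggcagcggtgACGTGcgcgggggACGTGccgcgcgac
Pdk1: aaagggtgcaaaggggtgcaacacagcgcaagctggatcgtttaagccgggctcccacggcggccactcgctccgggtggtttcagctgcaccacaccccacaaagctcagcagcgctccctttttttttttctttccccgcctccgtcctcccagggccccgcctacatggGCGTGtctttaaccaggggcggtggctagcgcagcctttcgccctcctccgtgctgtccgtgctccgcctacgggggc
Pfkfb3: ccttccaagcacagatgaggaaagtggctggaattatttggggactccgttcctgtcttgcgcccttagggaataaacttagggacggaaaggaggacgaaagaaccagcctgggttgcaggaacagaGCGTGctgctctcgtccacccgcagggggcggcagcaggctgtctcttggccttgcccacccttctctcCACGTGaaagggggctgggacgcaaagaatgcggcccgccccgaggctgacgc
Pgk1: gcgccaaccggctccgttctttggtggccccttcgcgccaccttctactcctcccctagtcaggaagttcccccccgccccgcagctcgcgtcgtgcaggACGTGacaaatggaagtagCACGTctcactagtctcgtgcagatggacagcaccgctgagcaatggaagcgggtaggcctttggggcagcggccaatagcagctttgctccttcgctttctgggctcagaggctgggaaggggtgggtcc
Ldha: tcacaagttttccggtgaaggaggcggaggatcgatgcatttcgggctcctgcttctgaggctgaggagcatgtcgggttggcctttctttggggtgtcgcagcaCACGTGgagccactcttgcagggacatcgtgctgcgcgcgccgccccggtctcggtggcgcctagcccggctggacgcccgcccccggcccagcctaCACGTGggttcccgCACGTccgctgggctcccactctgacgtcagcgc
Hk2: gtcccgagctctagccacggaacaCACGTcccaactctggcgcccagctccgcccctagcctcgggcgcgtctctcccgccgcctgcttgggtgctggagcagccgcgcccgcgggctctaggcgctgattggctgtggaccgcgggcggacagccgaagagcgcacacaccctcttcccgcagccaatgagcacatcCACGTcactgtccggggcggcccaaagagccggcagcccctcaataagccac
Hk1: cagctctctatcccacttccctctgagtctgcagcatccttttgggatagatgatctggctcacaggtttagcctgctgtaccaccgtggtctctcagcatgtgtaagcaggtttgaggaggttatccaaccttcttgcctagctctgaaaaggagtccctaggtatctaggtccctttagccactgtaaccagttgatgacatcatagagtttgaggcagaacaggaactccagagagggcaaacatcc
ACGTG occurred 2 times in the Slc16a3, Pgk1 and Hk2 windows. The Pfkfb3 window held CACGTG 1 time, which counts as ACGTG on both strands, and GCGTG 1 time. The window of the other Pfkfb3 start held ACGTG 1 time. In the Ldha window ACGTG occurred 5 times, where each of the 2 CACGTG letters counts on both strands. The second Ldha start had GCGTG 1 time. The Pdk1 window held GCGTG 1 time and no ACGTG, and the window of its other start held neither. The Hk1 window shown held neither form, but the window of its other start (chr10:62340422-62340671) held GCGTG 3 times. That window had more than 30 bases of annotated exon and so is not shown. Hk1 and Hk2 thus each had matches.

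Glucose enters through Slc2a1 and Slc2a3, which encode the facilitative transporters GLUT1 and GLUT3, and both were called lower, with very different sizes. Slc2a1 (chr4:119108711-119137983, plus strand) measured 452 and 443 CPM in the untreated and 255 and 244 CPM in the degron libraries. The groups were far apart, and the mean fell from 447 ± 6.08 to 249 ± 7.79 CPM (SD, n = 2), -0.84 ± 0.05 on the log2 scale (edgeR adjusted p = 4.97e-17). Slc2a3 (chr6:122727809-122801640, minus strand) measured 1118 and 1166 CPM against 1063 and 1066 CPM, a narrow gap. Its change of -0.10 ± 0.04 (edgeR adjusted p = 0.0423) turned to 0.10 with the length trend removed (edgeR adjusted p = 0.0843). It was also lost without untreated replicate 2 (-0.06, edgeR adjusted p = 0.336), degron replicate 1 (-0.10, edgeR adjusted p = 0.138) or degron replicate 2 (-0.10, edgeR adjusted p = 0.110). Per kb the transporters stood at nearly the same level in untreated cells, 15.4 CPM per kb for Slc2a1 and 15.5 for Slc2a3, and at 8.59 and 14.5 in the degron group.

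Hexokinases trap glucose in the cell by phosphorylating it. Hk2, the regulated form (chr6:82725025-82774454, minus strand), measured 399 and 377 CPM against 328 and 323 CPM, with no overlap. It fell by 0.25 ± 0.05 on the log2 scale (edgeR adjusted p = 0.000111), and with the length trend removed the change was -0.13 (edgeR adjusted p = 0.0578). Hk1, the more widely expressed form (chr10:62268855-62379908, minus strand), measured 95.4 and 89.1 CPM against 108 and 102 CPM, higher in both degron libraries. Its mean of 92.2 ± 4.42 CPM against 105 ± 4.36 CPM (SD, n = 2) gave 0.19 ± 0.08 (edgeR adjusted p = 0.0436), and 0.46 with the length trend removed (edgeR adjusted p = 6.77e-06). The Hk1 call was lost without untreated replicate 2 (0.15, edgeR adjusted p = 0.222) or degron replicate 1 (0.15, edgeR adjusted p = 0.269). The antisense gene Hk1os lies within Hk1, and whether reads were counted by strand is not stated. Its own counts were 32, 21, 46 and 28, far fewer than those of Hk1.

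Phosphoglucomutase links glucose phosphate with glycogen. Pgm1 (chr4:99929414-99987294, plus strand) measured 61.4 and 74.8 CPM in the untreated and 31.0 and 34.4 CPM in the degron libraries. The groups were separate, and the mean fell from 68.1 ± 9.50 to 32.7 ± 2.41 CPM (SD, n = 2), -1.06 ± 0.11 (edgeR adjusted p = 1.44e-10). Pgm2, a related mutase, lay at 36.2 to 41.4 CPM in all 4 libraries, and its groups overlapped. Gpi1, which turns glucose phosphate into fructose phosphate (chr7:34201330-34230336, minus strand), fell from 474 ± 18.7 to 379 ± 4.21 CPM (SD, n = 2), -0.33 ± 0.05 (edgeR adjusted p = 6.98e-07).

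Phosphofructokinase makes the committed step of glycolysis, and 2 of its 3 genes were lower. Pfkl, the liver-type subunit (chr10:77986947-78010083, minus strand), measured 140 and 140 CPM against 62.6 and 60.6 CPM. Pfkp, the platelet-type subunit (chr13:6579768-6648777, minus strand), measured 342 and 319 CPM against 167 and 171 CPM. Both degron libraries stood well below both untreated ones for each gene. Pfkl fell from 140 ± 0.0908 to 61.6 ± 1.37 CPM (SD, n = 2), -1.18 ± 0.08 (edgeR adjusted p = 4.77e-16). Pfkp fell from 330 ± 16.5 to 169 ± 2.90 CPM (SD, n = 2), -0.97 ± 0.06 (edgeR adjusted p = 2.4e-17). Pfkm, the muscle-type subunit, lay at 27.6 and 26.4 CPM against 24.6 and 27.5 CPM, with overlap. Per kb, Pfkl was above Pfkp in the untreated cells, at 6.13 and 4.81 CPM per kb, and close to it in the degron group, at 2.697 and 2.466.

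The bifunctional enzymes of the Pfkfb family make and remove the fructose bisphosphate that activates phosphofructokinase, and Pfkfb3 was the only one of the 4 that passed. Pfkfb3, the form with the strongest kinase activity (chr2:11471433-11554077, minus strand), measured 77.9 and 87.7 CPM against 29.6 and 26.6 CPM. The degron libraries were far lower, and the mean fell from 82.8 ± 6.88 to 28.1 ± 2.09 CPM (SD, n = 2), -1.54 ± 0.10 (edgeR adjusted p = 7.65e-16). Pfkfb1 had a log2 fold change of -0.26 ± 0.18 and Pfkfb4 one of 0.02 ± 0.12. Pfkfb2 measured 5.097 and 3.81 CPM against 7.63 and 6.31 CPM, a difference of 0.65 ± 0.28 that did not pass (edgeR adjusted p = 0.0649). It rested on 24, 16, 50 and 31 counts, and 70.6% of the gene is covered by a gene on its strand.

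Aldolase splits the product of phosphofructokinase, not the activating fructose bisphosphate, into trioses. The main Aldoa entry (ENSMUSG00000030695, chr7:126795234-126800751, minus strand) measured 172 and 161 CPM against 139 and 149 CPM, without overlap. It fell by 0.21 ± 0.07 on the log2 scale (edgeR adjusted p = 0.00959), and by 0.43 with the length trend removed. That call was lost without untreated replicate 1 (-0.16, edgeR adjusted p = 0.143) or degron replicate 1 (-0.16, edgeR adjusted p = 0.123). Aldoc, the brain-type enzyme (chr11:78322968-78327781, plus strand), measured 5.31 and 4.05 CPM against 2.14 and 2.64 CPM from 25, 17, 14 and 13 counts. The groups were separate at a low level, and the change of -0.99 ± 0.36 (edgeR adjusted p = 0.0237) was lost without untreated replicate 1 (-0.77, edgeR adjusted p = 0.230) or degron replicate 1 (-0.83, edgeR adjusted p = 0.138).

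An Aldoa entry just upstream (ENSMUSG00000114515, chr7:126800790-126809108, minus strand) had the opposite direction, with 9.98 and 10.2 CPM against 13.0 and 15.7 CPM. Its groups did not overlap, and its 0.49 ± 0.20 passed narrowly (edgeR adjusted p = 0.0464). The call was lost without untreated replicate 1 (0.47, edgeR adjusted p = 0.164), untreated replicate 2 (0.51, edgeR adjusted p = 0.120) or degron replicate 2 (0.36, edgeR adjusted p = 0.241), and with the length trend removed (0.30, edgeR adjusted p = 0.279). Its rise rested on 47, 43, 85 and 77 counts. All of it, and 55.9% of the main Aldoa entry, is covered on the other strand by Fam57b. Without a stated strand setting, reads of these genes cannot be told apart.

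Triose phosphate isomerase, Tpi1 (chr6:124810586-124814296, minus strand), measured 23.8 and 18.8 CPM against 13.4 and 13.6 CPM. The groups did not overlap. Its mean fell from 21.3 ± 3.51 to 13.5 ± 0.143 CPM (SD, n = 2), -0.66 ± 0.17 (edgeR adjusted p = 0.00153), and the call was lost without untreated replicate 1 (-0.47, edgeR adjusted p = 0.0966).

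Gapdh, which makes the NADH of glycolysis and often serves as a reference gene (chr6:125161715-125166467, minus strand), measured 154 and 152 CPM against 173 and 189 CPM. It was higher in both degron libraries, with means of 153 ± 1.27 and 181 ± 11.3 CPM (SD, n = 2) and a change of 0.24 ± 0.07 (edgeR adjusted p = 0.00331). With the length trend removed the difference was 0.02 (edgeR adjusted p = 0.881), and without degron replicate 2 it was 0.18 (edgeR adjusted p = 0.0695). Pgk1, the first ATP-forming enzyme of the route (chrX:106187100-106203699, plus strand), measured 114 and 140 CPM against 56.0 and 57.8 CPM. Its groups were far apart, and the mean fell from 127 ± 18.1 to 56.9 ± 1.25 CPM (SD, n = 2), -1.15 ± 0.09 (edgeR adjusted p = 3.63e-14). Pgam1 and Bpgm, the phosphoglycerate and bisphosphoglycerate mutases, did not pass, with -0.01 ± 0.09 and -0.24 ± 0.15.

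Enolase forms phosphoenolpyruvate. Eno1, the widely expressed form (chr4:150236721-150248879, plus strand), measured 305 and 325 CPM against 220 and 227 CPM, and Eno2, the neuronal form (chr6:124760053-124769673, minus strand), 17.0 and 13.3 CPM against 7.93 and 11.8 CPM. Neither gene's groups overlapped. Eno1 fell by 0.49 ± 0.06 (edgeR adjusted p = 1.49e-09) and Eno2 by 0.66 ± 0.20 (edgeR adjusted p = 0.00837) on the log2 scale. The Eno2 call was lost without untreated replicate 1 (-0.46, edgeR adjusted p = 0.169) or degron replicate 1 (-0.37, edgeR adjusted p = 0.237). Eno3, the muscle form, lay between 6.43 and 8.07 CPM in all libraries with overlap. Pkm, pyruvate kinase (chr9:59656368-59679375, plus strand), fell from 742 ± 4.31 to 565 ± 5.98 CPM (SD, n = 2), -0.39 ± 0.04 (edgeR adjusted p = 1.18e-09). Another gene on its strand, Gm49759, covers 16.9% of Pkm and had a count of 0 in every library.

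At the entry of pyruvate into mitochondrial oxidation, 2 of the 4 kinase genes of pyruvate dehydrogenase were lower and both of its E1 subunit genes were higher. Pdk1, a kinase that switches pyruvate dehydrogenase off (chr2:71873224-71903858, plus strand), measured 71.6 and 69.8 CPM against 20.0 and 23.6 CPM. The groups were far apart, and the mean fell from 70.7 ± 1.25 to 21.8 ± 2.55 CPM (SD, n = 2), -1.71 ± 0.11 (edgeR adjusted p = 4.25e-16). Pdk3 (chrX:93764607-93832201, minus strand) measured 62.2 and 67.2 CPM against 49.6 and 47.6 CPM. Its groups were separate, with -0.41 ± 0.10 (edgeR adjusted p = 0.000656), and -0.23 with the length trend removed (edgeR adjusted p = 0.0723). Pdk2 and Pdk4 did not pass, with 0.35 and -0.79 on the log2 scale at means under 7 CPM.

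Pdha1, the catalytic E1 alpha subunit that these kinases act on (chrX:160122209-160138413, minus strand), measured 66.5 and 64.1 CPM against 85.3 and 90.9 CPM. Both degron libraries were higher, and the mean rose from 65.3 ± 1.69 to 88.1 ± 3.99 CPM (SD, n = 2), 0.43 ± 0.09 (edgeR adjusted p = 8.7e-05), and by 0.34 with the length trend removed (edgeR adjusted p = 0.00175). Pdhb, the E1 beta subunit (chr14:8165996-8173025, minus strand), measured 27.0 and 31.9 CPM against 38.8 and 37.4 CPM. It too was higher in both degron libraries, with 0.38 ± 0.12 (edgeR adjusted p = 0.0116). The Pdhb call was lost with the length trend removed (0.17, edgeR adjusted p = 0.315), without untreated replicate 1 (0.26, edgeR adjusted p = 0.189) and without degron replicate 1 (0.35, edgeR adjusted p = 0.0696). The other subunits of the complex, taken from the wider list described last and named with their values known, did not pass. Dlat (E2) had 0.06 ± 0.12, Pdhx (the E3-binding protein) -0.20 ± 0.10 and Dld (E3) -0.40 ± 0.17 (edgeR adjusted p = 0.736, 0.117 and 0.0519). Dld was lower with the length trend removed (-0.46, edgeR adjusted p = 0.0340). Mpc1 and Mpc2, the mitochondrial pyruvate carrier subunits, had -0.20 and -0.36, and neither passed.

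Ratios of partner genes within a library do not depend on scaling between libraries, and 11 pairs were compared. With 2 libraries against 2, the smallest p of the exact two-sided permutation test is 0.333, so no pair could pass. The 9 pairs with that value (0.407 adjusted over the pairs) were those whose groups did not overlap. The share of all gene pairs that separate in this way was not worked out, so the number of pairs is not read as a result. Slc16a3 over Slc16a1 was 0.845 and 0.682 in the untreated and 0.108 and 0.127 in the degron libraries. Ldha over Ldhb was 8.17 and 7.08 against 4.13 and 4.17. The lactate pairs thus both had lower ratios in each degron library. Slc2a1 over Slc2a3 was 0.404 and 0.380 against 0.239 and 0.228, and Hk2 over Hk1 was 4.18 and 4.23 against 3.03 and 3.16. Pdk1 over Pdk3 was 1.15 and 1.04 against 0.403 and 0.496, and Pfkfb3 over Pfkfb2 was 15.3 and 23.0 against 3.88 and 4.23. These 4 ratios were lower in both degron libraries as well. Pfkp over Pfkl went from 2.44 and 2.28 to 2.68 and 2.83, and Aldoa over Aldoc from 32.4 and 39.6 to 65.3 and 56.2. Mpc1 over Mpc2 was 2.67 and 3.162 against 3.163 and 3.39, so its groups nearly touched, on Mpc2 counts of 39, 37, 43 and 33. Eno1 over Eno2 and Pdha1 over Pdhb overlapped between the groups (exact permutation p = 0.667 and 1).

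**Figure D4:**
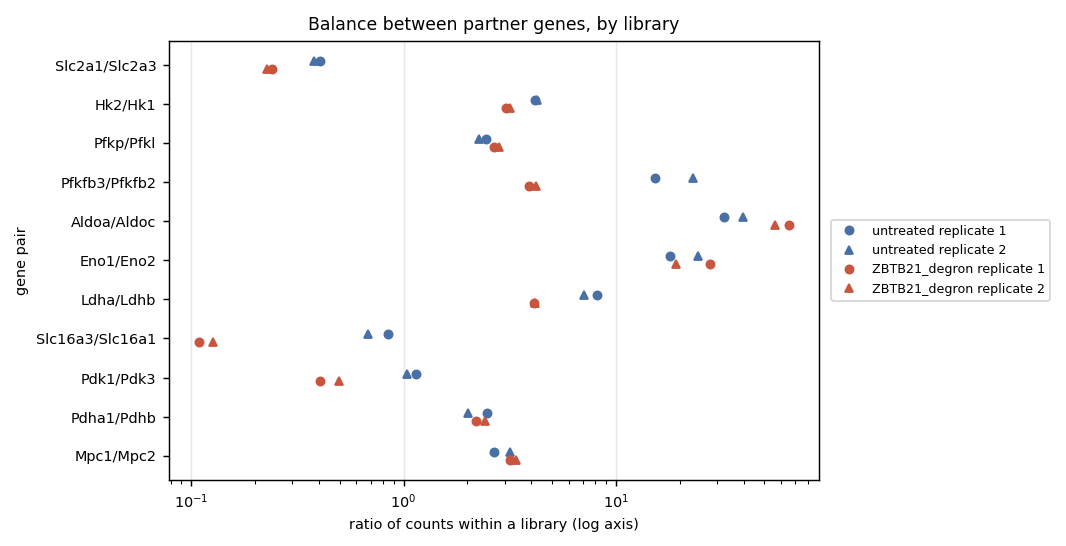
Ratio of the counts of partner genes within each library on a log axis, for 11 pairs, with blue points for untreated and red for degron libraries. Slc16a3 over Slc16a1 shows the widest gap, from 0.682 or more to 0.127 or less, and the Eno1/Eno2 and Pdha1/Pdhb points of the groups overlap.

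Per kb of counted gene body, Gapdh (34.3 CPM per kb), Pkm (32.7), Aldoa (31.9) and Eno1 (26.6) stood highest in the untreated cells. Gpi1, Slc2a3 and Slc2a1 followed at 16.5, 15.5 and 15.4 CPM per kb, and Pgam1, Slc16a3 and Ldha at 11.1, 10.7 and 9.45. Pdk4 (0.203) and Pfkfb2 (0.112) were lowest. In the degron group Gapdh, at 40.6 CPM per kb, was above Aldoa at 27.6 and Pkm at 24.9.

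Around the route, 57 further genes of sugar handling were listed and 41 of them tested. Of these 7 were higher and 5 lower by edgeR, beside the 20.3% and 19.8% of all genes tested, so this wider list was near the background. The higher ones lay mostly in the pentose phosphate branch, which makes NADPH and ribose phosphate, with 5 of 8 higher and none lower. DESeq2 called 4 of the 8 higher, without Taldo1 (DESeq2 adjusted p = 0.125). Of the glycogen genes 3 of 7 were lower and none higher. Only 2 of the 7 were lower with the length trend removed, and 1 in DESeq2. Of 7 other sugar transporters none passed.

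Tigar, whose product removes the activating fructose bisphosphate and so diverts sugar from glycolysis, measured 124 and 125 CPM against 200.3 and 203 CPM. Both degron libraries were higher, and it rose by 0.70 ± 0.07 (edgeR adjusted p = 1.25e-11). Pgd, the phosphogluconate dehydrogenase, measured 267 and 262 CPM against 383 and 408 CPM and rose by 0.58 ± 0.05 (edgeR adjusted p = 8.47e-12). H6pd, the enzyme that starts the branch in the endoplasmic reticulum, measured 144 and 136 CPM against 211 and 208 CPM and rose by 0.58 ± 0.06 (edgeR adjusted p = 8.57e-10). For each of these genes the groups were well apart. Pgls, Taldo1, Tkt and Pdp2, chosen after their values were seen, were the other risers, with log2 fold changes of 0.45, 0.42, 0.26 and 0.41. Of Pgls, 38.6% is covered by another gene on its strand. The Pdp2 change was 0.21 with the length trend removed (edgeR adjusted p = 0.0681).

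Gbe1, the glycogen branching enzyme, measured 29.3 and 26.4 CPM against 12.1 and 12.6 CPM and fell by 1.18 ± 0.16 (edgeR adjusted p = 7.16e-08). Gpd2, the mitochondrial glycerol phosphate dehydrogenase that takes electrons from cytosolic NADH, measured 188 and 182 CPM against 133 and 126 CPM and fell by 0.51 ± 0.07 (edgeR adjusted p = 2.81e-08), and by 0.22 with the length trend removed. Neither gene's groups overlapped. Pygl, a glycogen phosphorylase, lay at 4.88 and 3.10 CPM against 0.916 and 1.83 CPM, near the floor, with -1.61 ± 0.44 (edgeR adjusted p = 0.00277). Its call was lost without untreated replicate 1 (-1.22, edgeR adjusted p = 0.105) or degron replicate 1 (-1.13, edgeR adjusted p = 0.0647). Bsg, the chaperone that brings MCT1 and MCT4 to the membrane, and Ugp2, which makes UDP-glucose, were chosen after their values were seen. Bsg had -0.20 ± 0.06 (edgeR adjusted p = 0.0061), and -0.09 without degron replicate 1 (edgeR adjusted p = 0.356). Ugp2 had -0.40 ± 0.13 (edgeR adjusted p = 0.0138), lost without untreated replicate 2 (-0.31, edgeR adjusted p = 0.159) or degron replicate 1 (-0.38, edgeR adjusted p = 0.0771), and with the length trend removed (-0.28, edgeR adjusted p = 0.110).

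**Figure D5:**
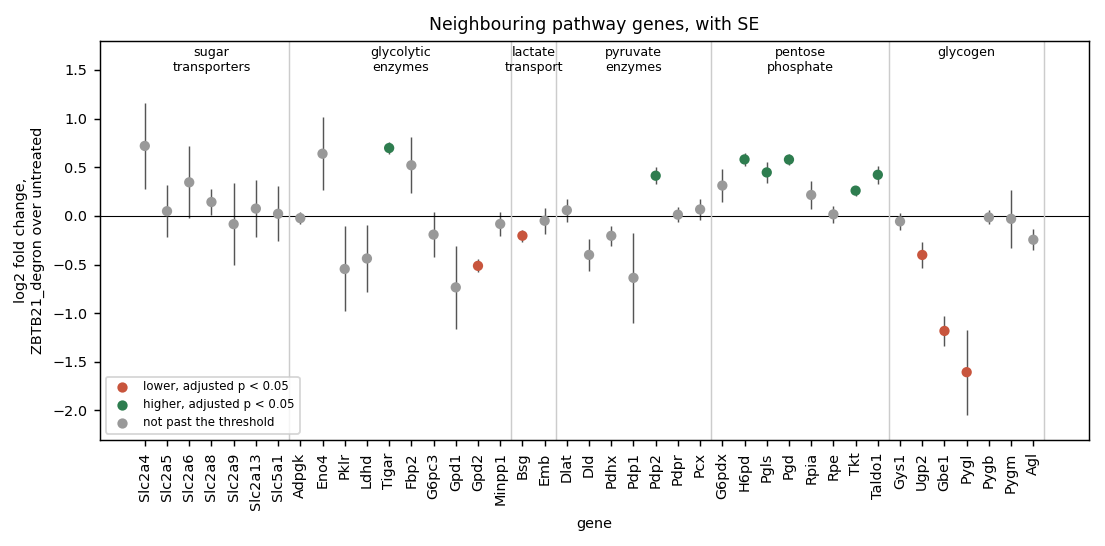
Log2 fold change (degron over untreated, vertical axis) with standard error of the 41 tested genes of neighbouring sugar pathways, grouped by branch and coloured by call. Genes of the pentose phosphate branch lie on the upper side, led by Pgd and H6pd at 0.58, and Pygl and Gbe1 of the glycogen branch lie lowest.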

How the data were processed

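Chromatin-associated RNA was sequenced from 2 untreated and 2 ZBTB21_degron libraries. The deposited values are raw counts per gene made by the authors. Per the submitters' processing notes, cutadapt 2.6, STAR 2.7.6a and featureCounts 1.6.3 were used with mm10 and dm6, while the study's methods name bowtie2 for mapping, so the mapper cannot be told apart. Unique reads without PCR duplicates were counted in the gene body, leaving out its first 300 bp. Strand setting and annotation release are not given in the sources used here. Introns count as well as exons, so the values follow unspliced RNA, and long genes gather more counts.

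Of 36918 identifiers, 36770 matched GENCODE M21 (mm10), which gave position, length and overlap. Total counts ran from 4262382 to 6479842. Genes were filtered with filterByExpr (minimum count 10, minimum total 15), scaled by TMM and compared with edgeR's robust quasi-likelihood F test (two-sided), with Benjamini-Hochberg adjustment across the 14361 genes and a threshold of 0.05. The study's methods scale ChAR-seq to fly spike-in reads, which were not used here. SEs were derived from the F statistic. Replicates differed by more than sampling noise (1.30 and 1.39 chi-square units per degree of freedom) and were kept apart. Intervals are 95% Wilson and cover counting error only. The fit was tested on simulated data.

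Alternatives were DESeq2 size factors and Wald test, limma voom, a replicate block, total counts, a mean minimum of 50 counts, no filter, each library left out, and length-adjusted scaling (loess of each library on log10 gene length, span 0.3). DESeq2 1.42.0, edgeR 4.0.16 and limma 3.58.1 ran in R 4.3.3. All members are accounted for. Full values are given for members past the threshold by at least 0.5 on the log2 scale, for every riser and for the partner pairs, and of the other genes for up to 3 in each direction with the smallest adjusted p. Members and lists, length adjustment included, were chosen with earlier results of these data known.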

Additional observations from a re-analysis of the deposited data

How the results depend on the processing

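With 2 libraries per group, single calls near the threshold hang on single libraries. DESeq2 gave no adjusted p for 6 of the 38 members and lost 8 calls besides Aldoc, which was among those 6, length-adjusted scaling lost 6 and gained Pgam1, and limma voom, total counts and no filter lost 1 each. Members higher numbered 2 with DESeq2, 2 with length-adjusted scaling and 3 with any library left out, and members lower 15 to 19 with a library left out. All genes higher numbered 1540 with DESeq2 and 2302 to 2479 with a library left out, and all genes lower 1456 with DESeq2, 1436 with length-adjusted scaling and 2104 to 2483 with a library left out. Of the other pathway genes, 2 were lower with DESeq2. The direction turned for Slc2a3 (0.10) and Pfkm (0.0054) with length-adjusted scaling, and for Pgam1 with total counts (0.010) and with no filter (0.021). With a library left out it turned for Pgm2 (log2 fold changes of -0.14 to 0.048), Pfkm (-0.14 to 0.022), Pfkfb4 (-0.033 to 0.077), Pgam1 (-0.059 to 0.037), Eno3 (-0.28 to 0.048) and Pdk2 (-0.045 to 0.60), none of which was called with all libraries. The cause of these turns was not tested. A replicate block left 20 members lower and 5 higher, and 3055 of all genes lower and 3119 higher. The deviations of libraries with the same number had a correlation of 0.0239. Counting noise makes up much of these deviations, so this value cannot exclude a small shared effect. Whether libraries with the same number belong together is not stated, and no pairing was used. The depth limits what can be said of Aldoc, Pdk4, Pdk2 and Pfkfb2, which had few counts.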
